A study of Rattus norvegicus with 12 samples.

Results

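The genes described here are circadian clock output and repressor genes, followed in cultured rat astrocytes. The list holds 10 genes: the REV-ERB genes Nr1d1 and Nr1d2, the period genes Per1, Per2 and Per3, the E-box repressors Bhlhe40 and Bhlhe41, the D-box regulators Dbp and Nfil3, and Noct, which encodes nocturnin. They were chosen by name, and each was followed through the one row of the value table that the platform annotation pairs with it. Such a row was used for 9 of the 10, out of 18166 genes in all, and Nr1d2 was not analysed here. Had a gene held several rows, the row would have been selected on its mean over the 12 arrays, but each of the 9 held 1. The list was drawn up with earlier results of these arrays known, in which Bhlhe40 had been named among the genes that differed with GW and Noct among those that differed with interferon-γ. The values of these genes in those comparisons are therefore given as a description, with no test.

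The series holds 12 arrays in 4 groups of 3. Astrocytes were grown from the cerebral cortex of Sprague-Dawley rats aged 1 day and kept in serum-free medium for 2 days, a step meant to remove microglia and meningeal cells. The first group carried SHP siRNA and received interferon-γ (IFN-γ) with GW, the second carried control siRNA and received IFN-γ with GW, the third carried control siRNA and received IFN-γ alone, and the fourth carried control siRNA with no treatment named in its label and is called untreated here. Treatment lasted 3 h, and the cells of all 12 arrays were transfected. GW is known here only by that label, and SHP is the protein of the nuclear receptor gene Nr0b2. The titles number the arrays of each group 1, 2 and 3. The labels do not say whether the numbers mark separate cultures or litters. The p-values therefore reflect only how much these arrays vary within a group, and that variation may be technical. Fits with number as a block use what is left of it after an offset for each number is removed. The series text adds that 4 of the 12 arrays had been used in an earlier series.

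In the mammalian clock, CLOCK and BMAL1 bind E-box sequences and switch on the genes of their own repressors. The PER proteins act with the cryptochromes to block CLOCK and BMAL1, BHLHE40 and BHLHE41 compete for the same E-boxes, and REV-ERBα, the product of Nr1d1, represses Bmal1. DBP activates and NFIL3 represses genes through the D-box, which carries clock timing to other genes. Nocturnin is a rhythmic output protein related to deadenylases that acts on NADPH. Astrocytes hold a clock of their own, and Per1, Per2 and Bhlhe40 are also known to respond within hours to serum, cAMP and stress signals.

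Promoter windows of RefSeq (build GRCr8, 250 bases before to 50 after a transcript start) were searched on both strands for the sequences through which the clock acts. There were 11 windows for the 10 genes, because Nr1d1 had 2. The E-box CACGTG stood in the windows of Bhlhe40 and Bhlhe41 and in one of the pair for Nr1d1, and in 6.42% of all 33469 promoter windows. The D-box TTATGTAA stood in the window of Per2 and in 0.893% of all windows. Stretches of 60 bases around these matches are shown, with the motif in capitals, because they hold the letters that E-box and D-box regulators are known to recognise.
Bhlhe40: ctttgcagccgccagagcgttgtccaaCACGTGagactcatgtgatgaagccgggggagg
Bhlhe41: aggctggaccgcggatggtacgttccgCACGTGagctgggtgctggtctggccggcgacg
Nr1d1: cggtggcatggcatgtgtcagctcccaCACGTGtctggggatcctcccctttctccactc
Per2: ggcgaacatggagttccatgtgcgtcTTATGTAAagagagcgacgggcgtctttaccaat
The Bhlhe40 stretch lies at chr4:143174203-143174262 on the plus strand. The Bhlhe41 stretch lies at chr4:180569371-180569430, the Nr1d1 stretch at chr10:84229613-84229672 and the Per2 stretch at chr9:99497152-99497211, all on the minus strand. The other motifs searched were the D-box TTACGTAA (0.12% of all windows), the cAMP response element TGACGTCA (1.83%), its core TGACG (21.2%), the REV-ERB and ROR motif AGGTCA (16.2%), the interferon-γ activated sequence TTCNNNGAA (8.87%) and the AP-1 site TGANTCA (7.33%). TGACG lies inside TGACGTCA. The core TGACG was found in the windows of Nfil3, Nr1d2, Per2 and Per3, AGGTCA in that of Nr1d2, and TTCNNNGAA in those of Dbp and Nr1d1. TTACGTAA, TGACGTCA and TGANTCA were in 0 of the 11 windows. Not every window lay at the outer end of its gene. The Per1 window (chr10:54304126-54304425, plus strand) lay inside the gene, which begins at 54299002, so the sequence before that base was not searched. The Nr1d1 window with the E-box (chr10:84229405-84229704) also lay inside its gene, which begins at 84231812 on the minus strand. A match describes these letters only, and nothing about binding was measured.

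The deposited values are log2 expression values, so a difference of 1 is a doubling. All 9 genes lay above background on all 12 arrays, where background is the 95th percentile (5.34) of the mean values of 1344 olfactory and vomeronasal receptor genes. Bhlhe40 had the highest mean over the 12 arrays at 10.42, followed by Dbp at 10.19, Nr1d1 at 9.28 and Noct at 9.13, and Per2 had the lowest. These are readings of different probe sets and do not rank the genes by transcript number. The interferon target gene Irf1 lay between 10.87 and 12.35 on the 9 arrays with IFN-γ, against 8.60 to 9.30 on the 3 without it. In RNA of a whole culture, fewer cells of a type and less RNA per cell cannot be told apart.

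**Figure D1:**
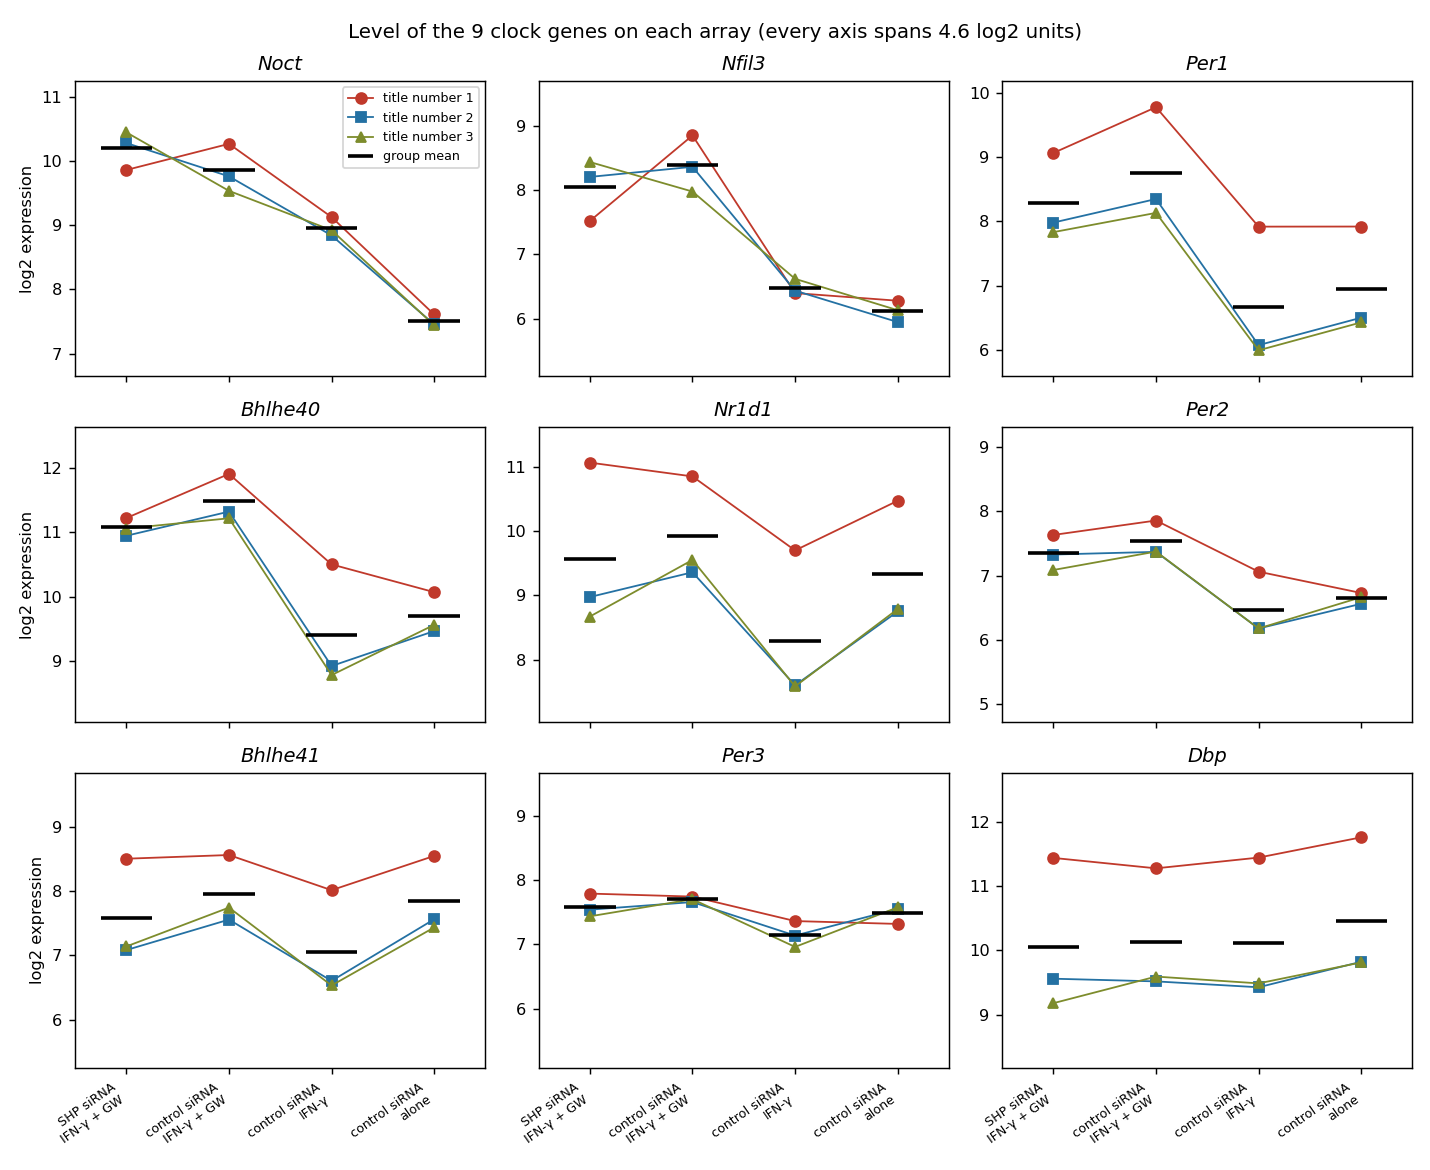
The log2 level of each of the 9 genes (vertical axis) is plotted for the 4 groups, with 1 point per array, lines joining arrays of the same title number, and black bars for group means. Per1 lay between 7.83 and 9.78 on the arrays with GW and between 5.99 and 7.92 on those without it, and the arrays numbered 1 ran above the others for Dbp, Nr1d1 and Bhlhe41.

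The comparison of IFN-γ with GW against IFN-γ alone, both in cells with control siRNA, asks what GW added. All 9 genes had a positive difference, with a median of 1.06, whereas the median over all 18166 genes was 0.00. In the fit of group means, Nfil3 rose and Bhlhe40 was past the threshold, so that 2 of 9 were called, against 0.886% of all genes. With title number as a block, which assumes that the numbers pair the arrays, 8 of the 9 were called, all higher. The share of all genes was 6.55%, and Dbp was the exception. Bhlhe40 is in both counts, and nothing is read from its place there because it was named in this comparison before. Noct is in the count with the block, and nothing is read from its place because its naming used the same arrays with IFN-γ alone.

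Of the PER repressors, Per1 had levels of 9.78, 8.35 and 8.13 with GW, against 7.92, 6.07 and 5.99 with IFN-γ alone. Every array with GW was above every array without it. Per1 differed by 2.09 (4.26-fold), which missed the threshold in the fit of group means (SE 0.63, limma adjusted p = 0.19) and passed with the block (SE 0.13, limma adjusted p = 0.000139). Per2 had 7.86, 7.37 and 7.37 with GW, against 7.06, 6.18 and 6.18 without, and the groups did not overlap. Its difference of 1.06 (2.09-fold) gave limma adjusted p = 0.0799 on group means and 0.00321 with the block. Per3 lay between 7.66 and 7.74 with GW and between 6.96 and 7.36 without, a smaller difference of 0.55 that passed with the block only (limma adjusted p = 0.0277).

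Bhlhe40, the E-box repressor whose difference led to its place on the list, had 11.91, 11.33 and 11.22 with GW, against 10.50, 8.92 and 8.78 without. The difference was 2.08 ± 0.39 (SE, n = 3 arrays each) and array 1 of the IFN-γ group stood well above the other two of that group. Its paralog Bhlhe41 lay between 7.56 and 8.56 with GW and between 6.53 and 8.01 without. The groups overlapped, and the difference of 0.90 passed with the block (limma adjusted p = 0.00364) but not on group means (0.561). Nr1d1, the repressor of Bmal1, had 10.85, 9.36 and 9.55 with GW, against 9.70, 7.60 and 7.58 without. Within each number it was higher with GW, by 1.15, 1.76 and 1.97, while across numbers the groups overlapped. Its difference of 1.63 (3.09-fold) gave limma adjusted p = 0.471 on group means and 0.00106 with the block.

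Nfil3 and Dbp, which oppose each other at the D-box, differed in their values. Nfil3 had 8.85, 8.36 and 7.98 with GW, against 6.40, 6.43 and 6.62 without. It rose by 1.91 (3.77-fold, SE 0.25, limma adjusted p = 0.0086), and the lowest array with GW was 1.36 above the highest without. Dbp lay between 9.52 and 11.28 with GW and between 9.43 and 11.45 without, a difference of 0.01 (limma adjusted p = 0.97 with the block). Noct had 10.26, 9.76 and 9.53 with GW, against 9.12, 8.84 and 8.92 without, and no array overlapped. The difference of 0.89 (1.85-fold, SE 0.19) is a description, because Noct was named for a difference that used the same arrays with IFN-γ alone.

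In all, 6 of the 9 genes, namely Per1, Per2, Per3, Bhlhe40, Nfil3 and Noct, were higher on every GW array than on any array with IFN-γ alone, a separation in either direction that 15.3% of all genes showed. Without the 4 arrays numbered 1, 8 of the 9 were called, the same 8 as with the block, against 11.5% of all genes. Bhlhe40 and Noct are in both of these counts. Nothing is read from their places there, because their naming used arrays of this comparison. The place of Bhlhe40 in the count on group means was lost without any 1 array of either group other than array 1 of the IFN-γ group, with differences between 1.77 and 2.22, and also without all arrays numbered 2 (1.92) or all numbered 3 (1.91). The call of Nfil3 was lost in some fits with fewer arrays, although its difference remained. Without array 2 of the IFN-γ group the difference was 1.89 (limma adjusted p = 0.0512). It was 1.91 without all arrays numbered 2 (limma adjusted p = 0.825) and 2.19 without all numbered 3 (0.355). Without all arrays numbered 1 the difference of Nfil3 was 1.64, and it stayed called (limma adjusted p = 0.000378). Without array 1 of the IFN-γ group, Per1, Per2 and Per3 also passed on group means (limma adjusted p = 0.0421, 0.00662 and 0.0334). The change in the pair numbered 1 was past the threshold of difference from the others for 1 of the 9, again Bhlhe40, against 3.02% of all genes, and nothing is read from that count. Microglial markers moved in the same comparison. Their mean level over 13 measured markers, none at background, was 8.14 to 8.31 with GW and 8.56 to 8.75 without. On group means 0 of the 13 were called, against 0.886% of all genes. With the block 7 of the 13 fell, against 6.55% of all genes called in either direction. Their part in the result was not tested.

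**Figure D2:**
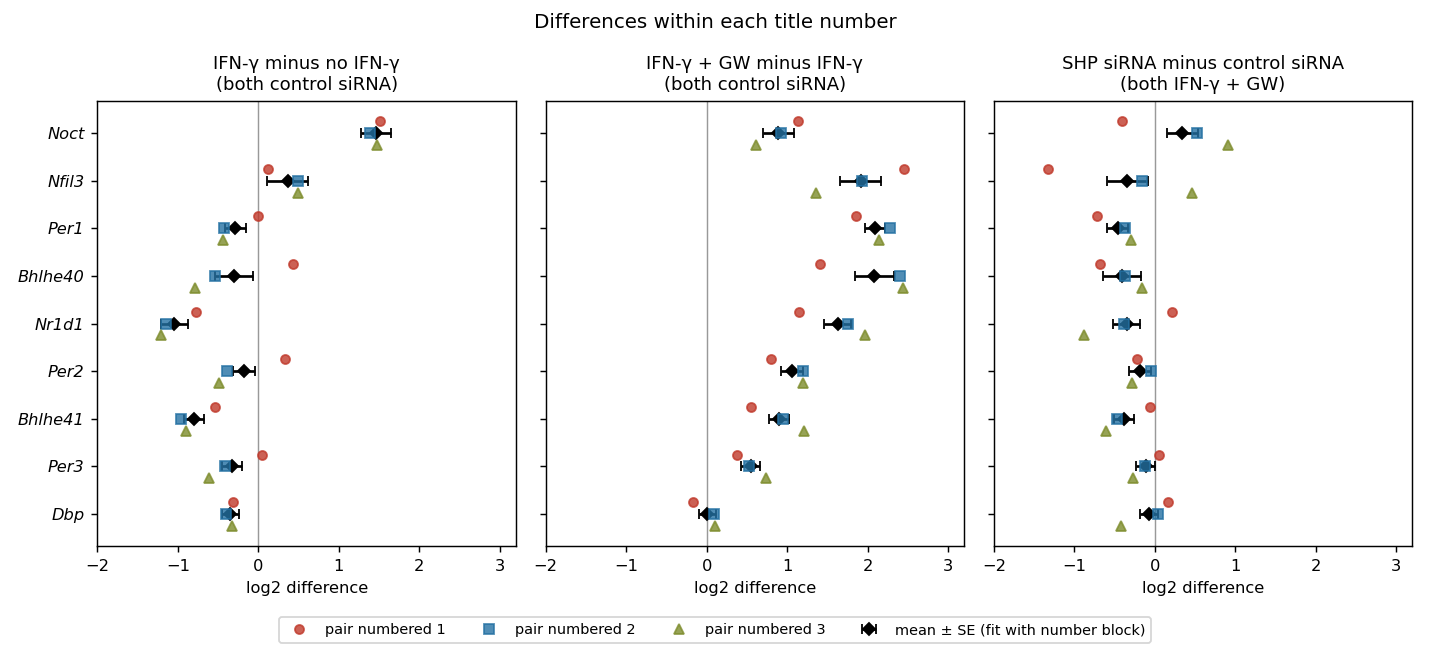
The horizontal axis gives the log2 difference of each gene in 3 comparisons, with a coloured point for each pair of arrays of the same title number and a black diamond for the mean with its SE from the fit with number as a block. With GW, the 3 pairs lie right of 0 for 8 of the 9 genes and around 0 for Dbp, while in the SHP siRNA comparison the pairs of Noct and Nfil3 fall on both sides of 0.

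Other genes of the clock were counted from a list of 22, of which 17 had a row and were tested. With GW, 1 of the 17 was called on group means, against 0.886% of all genes, and 6 with the block, against 6.55%, all higher. Cry1, a cryptochrome that represses CLOCK and BMAL1, had 7.37, 7.47 and 7.39 with GW, against 6.99, 6.70 and 6.94 without, and rose by 0.53 (limma adjusted p = 0.0433). Leaving out any array of these groups other than array 1 of the IFN-γ group ended that call (limma adjusted p between 0.0751 and 0.202). The others that passed with the block were the CLOCK and BMAL1 repressor gene Ciart (1.51), the deubiquitinase gene Usp2 (0.87), the cryptochrome Cry2 (0.74), Rora, which activates Bmal1 (0.47), and Clock itself (0.31). Npas2, a relative of Clock that can take its place beside BMAL1, lay between 6.78 and 7.07 with GW and between 6.72 and 6.85 without, and was not called (0.12, limma adjusted p = 0.454 with the block). Bmal1 had 7.24, 8.13 and 8.14 with GW, against 7.28, 7.69 and 7.64 without, and was not called (0.30, limma adjusted p = 0.143 with the block). The median difference over the 17 was 0.20, and 16 were positive. The exception was Nampt (-1.10), lower on every array with GW than on any with IFN-γ alone but not called with the block (limma adjusted p = 0.0927). Without the arrays numbered 1, 9 of the 17 were called, against 11.5% of all genes. Of these, 8 were higher, Bmal1 (0.47) among them, and Nampt (-1.54) was lower.

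The comparison of IFN-γ with untreated cells, both with control siRNA, gave mostly negative differences. The median over the 9 genes was -0.30, beside -0.03 over all genes, and 2 of the 9, Nfil3 and Noct, were positive. On group means only Noct passed, 1 of 9 against 0.121% of all genes, and nothing is read from that count because Noct was named in this comparison before. The count was 0 without array 2 or array 3 of either group. With the block 3 of 9 passed, against 0.936% of all genes, and the additional genes were Nr1d1 and Bhlhe41, which fell. Noct is in that count too, and nothing is read from its place.

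Nr1d1 had 9.70, 7.60 and 7.58 with IFN-γ, against 10.47, 8.75 and 8.79 in untreated cells. It was lower in each numbered pair, by amounts of -0.77, -1.15 and -1.20, while arrays 2 and 3 of the untreated group lay below array 1 of the treated one. Nr1d1 fell by 1.04 with the block (2.06-fold lower, SE 0.17, limma adjusted p = 0.0207). Bhlhe41 lay between 6.53 and 8.01 with IFN-γ and between 7.43 and 8.55 in untreated cells. It fell by 0.80 with the block (SE 0.12, limma adjusted p = 0.0171), and every pair was lower. Neither gene passed on group means, where limma adjusted p was 1.00 for both.

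The PER genes and Bhlhe40 differed between the numbered pairs. Per1 had 7.92, 6.07 and 5.99 with IFN-γ, against 7.92, 6.50 and 6.43 without. Per2 had 7.06, 6.18 and 6.18 with IFN-γ, against 6.73, 6.56 and 6.66 without. Bhlhe40 had 10.50, 8.92 and 8.78 with IFN-γ, against 10.07, 9.46 and 9.56 without. In the pair numbered 1 Per2 and Bhlhe40 were higher with IFN-γ and Per1 was level, and in pairs 2 and 3 all 3 genes were lower. Without the 4 arrays numbered 1, 6 of the 9 genes were called, against 4.71% of all genes: Noct higher, and Nr1d1 (-1.18), Bhlhe41 (-0.93), Bhlhe40 (-0.66), Per3 (-0.51) and Per2 (-0.44) lower. Noct was named in this comparison, and Bhlhe40 for a difference that used the same arrays with IFN-γ. Nothing is read from their places in this count, or from that of Bhlhe40 in the next. The change in the pair numbered 1 differed from that in the other pairs for 1 of the 9, Bhlhe40, against 2.43% of all genes, in a model added after the data were seen.

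Noct and Nfil3 differed from the rest in sign. Noct had 9.12, 8.84 and 8.92 with IFN-γ, against 7.61, 7.45 and 7.44 in untreated cells, a difference of 1.46 ± 0.19 (SE, n = 3 arrays each), or 2.75-fold, which is a description. Every treated array was above every untreated one. Nfil3 had 6.40, 6.43 and 6.62 with IFN-γ, against 6.28, 5.95 and 6.13 without. These groups did not overlap either, but the difference of 0.37 was not called (limma adjusted p = 0.645 with the block). Separation of the groups was seen for 2 of 9 genes and for 9.3% of all genes. Nothing is read from the place of Noct among the 2. Dbp lay between 9.43 and 11.45 with IFN-γ and between 9.81 and 11.76 without; the difference of -0.35 was alike in the 3 pairs (-0.32, -0.40 and -0.33) and was not called (limma adjusted p = 0.227 with the block). Of the 17 other clock genes, 0 were called on group means or with the block. Without the arrays numbered 1, 3 were called, against 4.71% of all genes. The output gene Nampt, which encodes an enzyme of NAD synthesis, was higher by 1.70 there (limma adjusted p = 0.000106), and the output genes Usp2 (-0.64) and Tef (-0.43) were lower.

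Against untreated cells, IFN-γ with GW gave 2 calls among the 9 genes on group means, against 0.864% of all genes, and both were higher. Nfil3 rose by 2.28 (4.85-fold, SE 0.25, limma adjusted p = 0.00331). Noct differed by 2.35 (5.10-fold, SE 0.19), a description because it was named for its difference from the same untreated arrays. Nothing is read from the place of Noct in the counts. The call of Nfil3 was lost without all arrays numbered 2 (limma adjusted p = 0.686) and without all numbered 3 (0.136), as was the place of Noct in the count. With the block 5 of 9 were called, against 6.84% of all genes, since Per1 (1.80), Bhlhe40 (1.79) and Per2 (0.88) passed as well. Nr1d1 differed by 0.59 and was not called with the block (limma adjusted p = 0.067); without the arrays numbered 1 it rose by 0.69, and 6 of 9 genes were called, against 5.66% of all genes. The 6 genes whose groups did not overlap were Per1, Per2, Per3, Bhlhe40, Nfil3 and Noct, and 18.2% of all genes were separated in this comparison. Bhlhe41 (0.11) and Dbp (-0.34) were not called. This comparison shares its arrays with those before it, and its values are not a repeat of them. Bhlhe40 was named for a difference that used the same GW arrays, so nothing is read from its place in these counts. The microglial markers were lower here too, at 8.14 to 8.31 with IFN-γ and GW and 8.52 to 9.15 in untreated cells. On group means 1 of 13, Tyrobp, was called and was lower, against 0.864% of all genes. With the block 11 of 13 fell, against 6.84% of all genes called in either direction. The part of the markers was not tested.

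The comparison of SHP siRNA with control siRNA, both under IFN-γ with GW, asks what lowering SHP changed. The target gene Nr0b2 read 5.12, 4.94 and 4.81 on the arrays labelled SHP siRNA, against 4.70, 4.78 and 4.91 on those with control siRNA. It was at or below background on all 12 arrays, so these values cannot check the labels. Of the 9 genes 0 were called, on group means or with the block, where the share of all genes was 0% in both fits. At an unadjusted limma p under 0.05 the count was 0 of the 9 on group means, with 416 genes in all (2.29%). With the block it was 2 of the 9, Per1 and Bhlhe41, with 972 genes in all (5.35%). The share of 5.35% is close to the 5% that this threshold passes with no difference, so nothing is read from these 2 genes. The median difference was -0.34, beside -0.02 over all genes, and the groups overlapped for all 9 genes, while they were separate for 6.47% of all genes.

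Noct had 9.86, 10.28 and 10.44 with SHP siRNA, against 10.26, 9.76 and 9.53 with control siRNA. It was lower with SHP siRNA in the pair numbered 1 and higher in the pairs numbered 2 and 3. Nfil3 had 7.52, 8.21 and 8.44 with SHP siRNA, against 8.85, 8.36 and 7.98 with control siRNA, with pair differences of -1.33, -0.16 and 0.46. Per1 had 9.07, 7.98 and 7.83 with SHP siRNA, against 9.78, 8.35 and 8.13 with control siRNA. It was lower in every pair, by a mean of -0.46 (limma adjusted p = 0.72 with the block). Bhlhe40 had 11.23, 10.95 and 11.06 with SHP siRNA, against 11.91, 11.33 and 11.22 with control siRNA, and was likewise lower in every pair (-0.41, limma adjusted p = 0.997 with the block). Nr1d1 had 11.07, 8.98 and 8.67 with SHP siRNA, against 10.85, 9.36 and 9.55 with control siRNA, and Per2 had 7.63, 7.33 and 7.09, against 7.86, 7.37 and 7.37. Neither difference (-0.35 for Nr1d1 and -0.18 for Per2) was called. Without the arrays numbered 1, 3 of the 9 passed, against 1.47% of all genes: Noct rose by 0.71 (limma adjusted p = 0.0131), and Nr1d1 fell by 0.63 (limma adjusted p = 0.0444) and Bhlhe41 by 0.54 (limma adjusted p = 0.0353). The change in the pair numbered 1 differed from that in the others for Noct, 1 of the 9, against 0.721% of all genes.

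Set against the remaining groups on group means, cells with SHP siRNA, IFN-γ and GW had Nfil3 and Noct past the threshold. Against untreated cells Nfil3 rose by 1.94 (limma adjusted p = 0.00738), and 2 of 9 were called, against 1.2% of all genes. Noct differed by 2.69, a description because it was named for its difference from the same untreated arrays. Nothing is read from the place of Noct in the counts against untreated cells. Nfil3 was at the threshold without array 2 of the untreated or of the SHP siRNA group (limma adjusted p = 0.0514 and 0.05). Its call was lost without all arrays numbered 2 or all numbered 3 (limma adjusted p = 0.826 and 0.443), as was the place of Noct in the count. With the block 6 of 9 passed, against 8.64% of all genes: Noct, Nfil3, Bhlhe40 (1.38), Per1 (1.34) and Per2 (0.70) were higher, and Dbp fell by 0.41 (limma adjusted p = 0.0468). Against IFN-γ alone Nfil3 rose by 1.57 (limma adjusted p = 0.0412), and 2 of 9 were called, against 0.303% of all genes. The other, Noct, differed by 1.23, a description because its naming used the same arrays with IFN-γ alone. With the block 6 of 9 passed here as well, against 3.08% of all genes, all higher: Nfil3, Noct, Bhlhe40 (1.68), Per1 (1.63), Nr1d1 (1.28) and Per2 (0.88). Bhlhe40 and Noct were each named for a difference that used the same arrays with IFN-γ alone, so nothing is read from their places in these counts. The call of Nfil3 against IFN-γ alone was lost without array 2 or 3 of either group, at limma adjusted p between 0.155 and 0.193. So was the place of Noct in that count.

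Ordered by group mean, the IFN-γ with GW group stood highest for 7 of the 9 genes, SHP siRNA with IFN-γ and GW for Noct, and untreated cells for Dbp. The order of Noct was 10.19 with SHP siRNA, 9.85 with IFN-γ and GW, 8.96 with IFN-γ and 7.50 untreated. The step between the top 2 was not called (limma adjusted p = 0.99 with the block), and its sign differed between the numbered pairs (-0.41, 0.52 and 0.91). The step between IFN-γ with GW and IFN-γ alone (0.89) and the last step are the descriptions already given. For Per1, Per2 and Bhlhe40 the order was IFN-γ with GW, SHP siRNA with IFN-γ and GW, untreated, IFN-γ. Only the step between the SHP siRNA group and untreated cells passed in these 3 genes, with the block, at 1.34 for Per1, 0.70 for Per2 and 1.38 for Bhlhe40. Nfil3 had 8.40 with IFN-γ and GW, 8.05 with SHP siRNA, 6.48 with IFN-γ and 6.12 untreated, and the step between the SHP siRNA group and IFN-γ alone passed. Nr1d1 had the same order as Per1, at 9.92, 9.57, 9.34 and 8.30, and only its last step passed, with the block. No step between neighbouring groups in the order was called for Per3, Bhlhe41 and Dbp, on group means or with the block.

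After each gene was centred within each title number, the 9 genes varied together to different degrees over the 12 arrays. The correlation was 0.99 between Per1 and Bhlhe40, 0.97 between Per1 and Per2, 0.91 between Nr1d1 and Bhlhe41 and 0.90 between Nfil3 and Noct. It was -0.85 between Dbp and Noct and -0.67 between Dbp and Nfil3. These are descriptions over the same 12 arrays in 4 groups, so each mainly restates the order of the groups. Among 12433 genes above background, the 3 most like Noct by this measure were Runx1 (r = 0.995), Zfp281 (0.983) and Klf6 (0.981). Those most like Nfil3 were Atxn7 (0.997), Errfi1 (0.989) and Azin1 (0.987). Those most like Per1 were Urb2, Id3 and Hes1 (0.994 each).

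For Dbp, Nr1d1 and Bhlhe41 the title numbers differed by more than the group means did, whose ranges were 0.41, 1.63 and 0.90. On the 4 arrays numbered 1, Dbp lay between 11.28 and 11.76, against 9.18 to 9.82 on the 8 arrays numbered 2 and 3. Nr1d1 lay between 9.70 and 11.07 on arrays numbered 1, against 7.58 to 9.55 on the others. Bhlhe41 lay between 8.01 and 8.56 on arrays numbered 1, against 6.53 to 7.74 on the others. For these 3 of the 9 genes no array numbered 1 overlapped with the rest, and 20.7% of all genes were separated in this way.

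In a fit with group in the model, 6 of the 9 genes were higher on arrays numbered 1, against 37.6% of all genes called in either direction. The output gene Dbp was higher by 1.93 (SE 0.08, limma adjusted p = 4.23e-07), and Nr1d1 by 1.86 (SE 0.13, limma adjusted p = 3.28e-06). Per1 was higher by 1.51, Bhlhe41 by 1.20, Bhlhe40 by 0.77 and Per2 by 0.48. Noct (0.13), Per3 (0.11) and Nfil3 (-0.00) were not called. Of the 17 other clock genes, 11 were called, 8 higher and 3 lower. Ciart (1.06), Usp2 (0.66), Tef (0.58), the kinase genes Wee1 (0.56) and Csnk1e (0.55), Cry2 (0.45), Clock (0.36) and Btrc (0.19) were higher. Timeless (-0.68), Bmal1 (-0.57) and Rora (-0.43) were lower.

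Bmal1 had 7.24 to 7.49 on arrays numbered 1, against 7.64 to 8.15 on the others, and a link to the levels of Nr1d1 or Rora was not tested. Cell type markers were also compared between the numbers, a comparison in which 37.6% of all genes were called in either direction. The list means of meningeal and vascular and of oligodendrocyte lineage markers did not overlap between number 1 and the others. Those of microglial, astrocyte and neuronal markers did. The mean level of 8 measured meningeal and vascular markers was 6.85 to 7.26 on arrays numbered 1 and 8.30 to 8.79 on the others, and 6 of the 8 were lower. Lum, which is among the 6, and Cldn5, which was not called, were at background. The mean of 13 microglial markers was 8.31 to 9.15 on arrays numbered 1 and 8.14 to 8.66 on the others, and 8 of the 13 were higher and 1 lower. The mean of 9 astrocyte markers was 9.76 to 9.98 on arrays numbered 1 and 9.92 to 10.12 on the others, and 2 of the 9 (Fgfr3 and Sox9) were higher and 5 (Aldoc, Aqp4, Gfap, Gja1 and Slc1a3) lower. Of the 8 oligodendrocyte lineage markers 3 (Mag, Olig1 and Pdgfra) were lower, and of the 8 neuronal markers 1 (Gad1) was higher and 3 (Snap25, Syt1 and Tubb3) lower. Of these, Mag, Snap25 and Tubb3 were at background. The part of these markers in the difference between numbers was not tested.

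**Figure D3:**
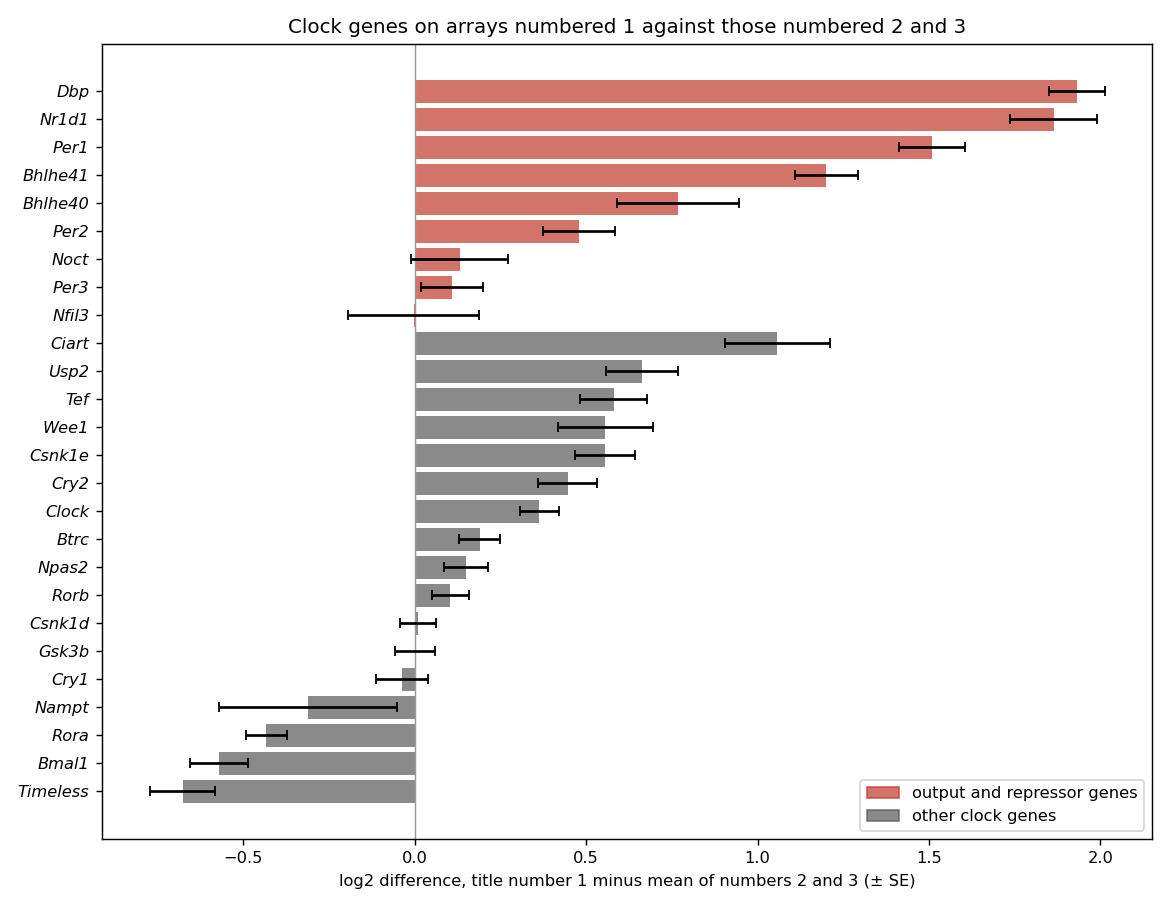
Bars give the log2 difference between arrays numbered 1 and the mean of those numbered 2 and 3 (horizontal axis) with its SE, for the 9 output and repressor genes and the 17 other clock genes (vertical axis). Dbp and Nr1d1 reach 1.93 and 1.86, Nfil3 lies at 0, and Bmal1 and Timeless lie below 0.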

How the data were processed

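Values were read from the deposited table of log2 expression, summarised by the authors, with 1 value per row and array. The log base was inferred from their range, 1.01 to 13.43, and the background correction and normalization are not given in the sources used here. Per the labels' protocols, total RNA came from a Trizol extraction, and biotin was attached to fragmented sense cDNA for whole-transcript arrays. Array medians over all 36685 rows ran between 5.51 and 5.67, and no further normalization was applied. The number of arrays limits the precision.

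Rows paired with exactly 1 gene in the platform annotation (18511, against 575 with several and 17599 with none) gave 18166 genes. Of these rows, 18394 were matched by Entrez ID to RefSeq (GRCr8). For 291 genes with several rows, the row with the highest mean was used.

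Limma 3.58.1 in R 4.3.3 (lmFit, contrasts.fit, eBayes) fitted 4 group means over all 12 arrays, with Benjamini-Hochberg adjustment over all genes and a threshold of 0.05. Lists were counted, not tested. The fits were tested on simulated data. Plots used matplotlib 3.10.9 and Python 3.11.15.

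All listed genes with a row are named, with values by array for the 6 with the largest range between group means. Other clock genes are named where they passed in a comparison or are core activators or cryptochromes, and the genes most like a member by correlation for the 3 members with the largest range. Wee1 and Nampt in the closing part were named after their values were seen. The members and lists were chosen with earlier results of these data known.

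Arrays with the same title number deviated together from their group means, with correlations between 0.63 and 0.77 (number 1), 0.48 and 0.58 (number 2), and 0.43 and 0.55 (number 3). Since all exceeded 0.1, title number was used as a block. Values with the block stand beside the group-mean fit where they change a call or a count. The deviations are taken from means of 3 arrays, so an offset of number 1 alone makes these correlations positive for all 3 numbers. They therefore cannot show whether numbers 2 and 3 pair the arrays across groups. A model in which number 1 has its own treatment effects was added after the data were seen.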

Additional observations from a re-analysis of the deposited data

Results flagged for a closer look

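The change with treatment was compared between title number 1 and numbers 2 and 3, in a limma model with 1 array per group in number 1 that takes its spread from numbers 2 and 3 only. The model was added after the data were seen and assumes that number 1 varies like the others. The values that follow are the change in number 1 minus the mean change in numbers 2 and 3, on the log2 scale.

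For IFN-γ against untreated cells, Bhlhe40 differed by 1.09, being higher with IFN-γ in number 1 and lower in numbers 2 and 3. That value is a description, because Bhlhe40 was named for a difference that used the same arrays with IFN-γ. The kinase gene Wee1 differed by 1.03 (limma adjusted p = 0.0128), also with opposite signs. Nampt, the gene of a NAD-producing enzyme with clock-driven rhythms, differed by -1.58 (limma adjusted p = 0.00523). Nampt had 9.22, 10.33 and 10.05 with IFN-γ, against 9.10, 8.50 and 8.48 in untreated cells, and was near level in number 1.

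For IFN-γ with GW against IFN-γ, Bhlhe40 differed by -1.01, a description because its values there led to its place on the list, with changes of 1.41, 2.40 and 2.44 in the numbered pairs. Nampt differed by 1.32 (limma adjusted p = 0.0114), with changes of -0.21, -1.73 and -1.34.

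For SHP siRNA against control siRNA, Noct differed by -1.12 (SE 0.18, limma adjusted p = 0.0404), with changes of -0.41, 0.52 and 0.91. Nampt differed by -1.58 (limma adjusted p = 0.0128), with changes of 0.07, 1.66 and 1.64. The 3 comparisons share arrays, so that array 1 of a group enters 2 of them.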

How the results depend on the processing

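The number of the 9 genes called was recomputed under the alternatives. With title number as a replicate block it was 8 in place of 2 for IFN-γ with GW against IFN-γ, 3 in place of 1 for IFN-γ against untreated, and 5 in place of 2 for IFN-γ with GW against untreated. The same counts (8, 3 and 5) came with the block and each array centred on its median. For IFN-γ with GW against IFN-γ, centring alone gave 1, since Bhlhe40 was no longer past the threshold, and a fit on these groups' arrays alone gave 0. Leaving out 1 array, or all arrays of one number, gave 0 to 8 calls for that comparison, 0 to 6 for IFN-γ against untreated, 0 to 6 for IFN-γ with GW against untreated and 0 to 3 for SHP siRNA. The upper ends came without the arrays numbered 1. Quantile normalization, a filter on dim genes, the mean of several rows and an intensity trend left these counts within 1.5 times, and the 6 genes higher in number 1 stayed within 1.5 times under each alternative run. Of 1071 single-gene values 909 kept direction and side of the threshold, 75 gained a call, 44 lost one and 43 changed sign with no call on either side; the causes were not tested. Values near background, as for Nr0b2, cannot show a fall.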
